A study of Mus musculus with 8 samples.

Results

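Endothelin, adrenomedullin, apelin and bradykinin are small peptides that blood vessels and heart cells make to set vessel tone, each read by receptors on neighbouring cells. The 10 genes described here encode peptides, an activating enzyme and receptors of these systems: Edn1, Ece1, Ednra, Ednrb, Adm, Calcrl, Ramp2, Apln, Aplnr and Bdkrb2. They were taken by gene name from the 30139 gene names on the array, and 9 of the 10 had enough signal to be tested. The samples were left ventricles from C57Bl/6j males, a laboratory strain kept by inbreeding, killed at 16 weeks of age. For their last 8 weeks 4 low salt mice ate chow with 0.05% sodium, and 4 normal salt mice ate chow with 0.4% sodium. All 8 mice were of 1 sex and 1 strain. The septum, free wall and apex were homogenised together, so each value is an average over all cells of the sample. Levels of atrial markers, given below, varied between the samples. The series asks what dietary salt does to gene expression in the heart.

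Endothelin is made mainly by the cells lining vessels as a longer precursor, which a membrane protease cuts to the active form. It constricts vessels through the A receptor on smooth muscle, while the B receptor on endothelium relaxes them and clears the peptide. Adrenomedullin and apelin are dilator peptides that also act on heart muscle, and bradykinin, cut from a plasma kininogen, dilates vessels through a receptor that endothelium carries at rest. In the kidney, endothelin acting on the B receptor promotes the excretion of sodium.

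RNA was measured on 4 Agilent arrays that lay on 1 slide and were read in 1 scan. An array took the RNA of 2 mice fed the same chow, the odd-numbered mouse in the dye Cy3 and the even-numbered mouse in Cy5, so that mice 1 and 2 shared an array, as did mice 3 and 4. Array position and diet cannot be told apart in this layout. The median spot intensity was 116 to 147 over the samples, against a local background of 15.5 to 33.5, and 53.0% to 66.3% of spots were well above background. Values below are normalised log2 intensities, and a difference is the low salt mean minus the normal salt mean on that scale. The level of one gene's probe was not compared with that of another's. With so few arrays, their number sets how precise the values can be.

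The 10 genes were read by 11 probes on 20 spots, since the Edn1 probe was printed at 10 places and Ednrb had 2 probes. In the mm9 build, the Edn1 probe lies on chromosome 13 from 42403101 to 42403160 and the Ece1 probe on chromosome 4 from 137519606 to 137519665. The Ednra probe lies on chromosome 8 from 80186985 to 80187044. The adrenomedullin probes lie on chromosome 7 from 117773088 to 117773147 for Adm, on chromosome 2 from 84173073 to 84173132 for Calcrl and on chromosome 11 from 101109501 to 101109560 for Ramp2. Those of the apelin pair lie on chromosome X from 45378593 to 45378652 for Apln and on chromosome 2 from 84979638 to 84979697 for Aplnr. The Bdkrb2 probe lies on chromosome 12 from 106831222 to 106831281. The array design names no exon or untranslated region for a probe. Ednrb was read at 2 places on chromosome 14, from 104214484 to 104214543 by its brighter probe and from 104220870 to 104220929 on the minus strand by the dimmer one. The dimmer probe is shown because it checks the brighter one at another place in the transcript, and 2 of its 3 forward reading frames hold no stop codon. No base is marked in capitals.
Ednrb: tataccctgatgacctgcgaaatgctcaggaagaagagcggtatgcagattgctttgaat

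None of the 9 genes tested passed an adjusted p of 0.05 in limma, where their smallest adjusted p was 0.446. In the same fit 145 of 18093 genes passed, which is 0.801% of all genes tested, 138 of them higher and 7 lower on low salt. Edn1 was the 1 gene of the 9 with an unadjusted p under 0.05, beside 11.1% of all genes in either direction and 4.28% in the lower direction. Edn1 was also the 1 gene of the 9 whose low salt mice all lay below the normal salt mice, beside 4.84% of all genes, and none of the 9 had them all above, beside 7.96%. The sign was negative for 7 of the 9 and positive for Ece1 and Ednrb, while 47.4% of all genes had a negative sign. The median difference was -0.08 over the 9 genes and 0.01 over all genes. In absolute size the median difference was 0.08 for the 9 and 0.13 for all genes, and the median standard error was 0.14 and 0.13. No gene of the 9 was 1.5-fold apart in the same direction in both dyes, beside 3.3% of all genes.

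**Figure D1:**
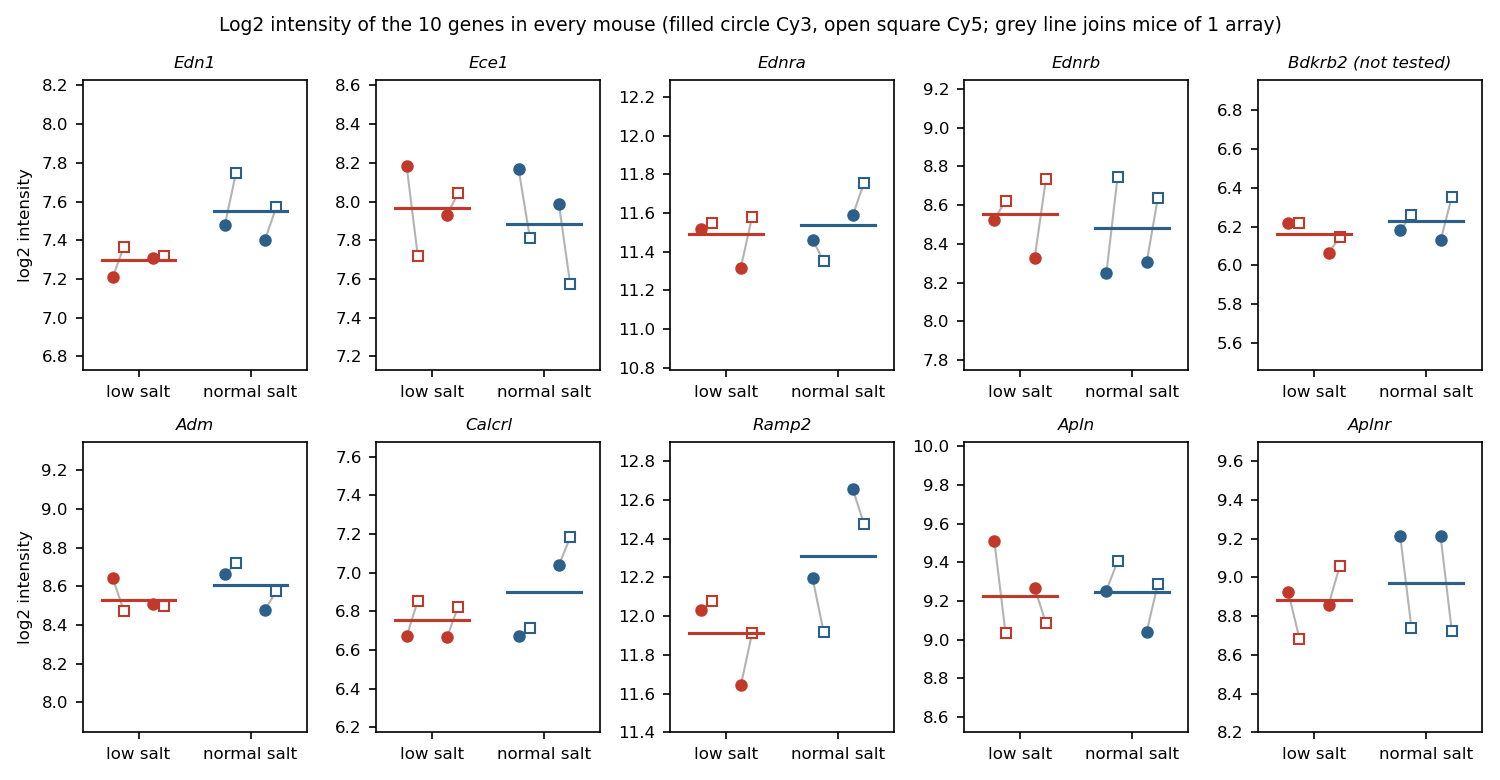
Normalised log2 intensity (vertical axis, every panel with the same span) of each of the 10 genes in each mouse, low salt in red and normal salt in blue; filled circles are Cy3 mice, open squares Cy5 mice, grey lines join mice of 1 array and bars are group means. In Edn1 alone the low salt mice, at 7.21 to 7.37, are fully separated from the normal salt mice, at 7.40 to 7.75, and Bdkrb2 was not well above background in any mouse.

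Edn1, which encodes the endothelin precursor, had a log2 intensity of 7.21, 7.37, 7.31 and 7.32 in low salt mice 1 to 4, against 7.48, 7.75, 7.40 and 7.57 in normal salt mice 1 to 4. The groups did not overlap, but the gap between the highest low salt mouse and the lowest normal salt mouse was narrow beside the range of the normal salt mice. The means were 7.30 ± 0.07 on low salt and 7.55 ± 0.15 on normal salt (SD, n = 4 each). The difference was -0.25 ± 0.11 (SE), a fold of 0.841 with an interval of 0.709 to 0.998 at 95% confidence. An offset of 50 was added to every intensity, which draws the folds of dim probes such as this one toward no change. The limma adjusted p of the Edn1 difference over all genes was 0.446, so the call was not made. The difference was -0.18 between the Cy3 mice and -0.32 between the Cy5 mice. Averaged over the places where the probe was printed, the surrounding spots differed by -0.00 between the diets. Such an average can hide opposite differences at single places. With the local trend subtracted at each spot, the Edn1 difference was -0.24.

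The 10 spots of the Edn1 probe repeat its measurement within each array, though not the mouse. All 10 had a lower mean in low salt mice, with differences between -0.38 and -0.10. Of 244 genes read from probes with 10 spots, 26 (10.7%) were likewise lower at every spot and 29 were higher at every spot, and 18 (7.38%) had a difference at or below that of Edn1. Within a mouse the SD over the spots was 0.08 to 0.20, against a difference between the diets of -0.25. The scanner software marked 7 of the 80 spot values as outliers, at 4 of the spots. Over the other 6 spots the difference was -0.24; that choice was made once the data had been seen.

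The size of the Edn1 difference moved with the processing of the signal. With the scanner's own processed signal, taken without the added offset and the loess step, it was -0.45 (limma adjusted p = 0.354). With the background model fitted on all spots, flagged ones included, and flagged local backgrounds kept, it was -0.03 (limma adjusted p = 0.554). The steps that changed together in a run were not varied singly. It was negative in every alternative run for Edn1, between -0.45 and -0.03, and its smallest limma adjusted p was 0.123, in the fit that left out the array block. Leaving out each mouse in turn gave differences between -0.29 and -0.21.

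**Figure D2:**
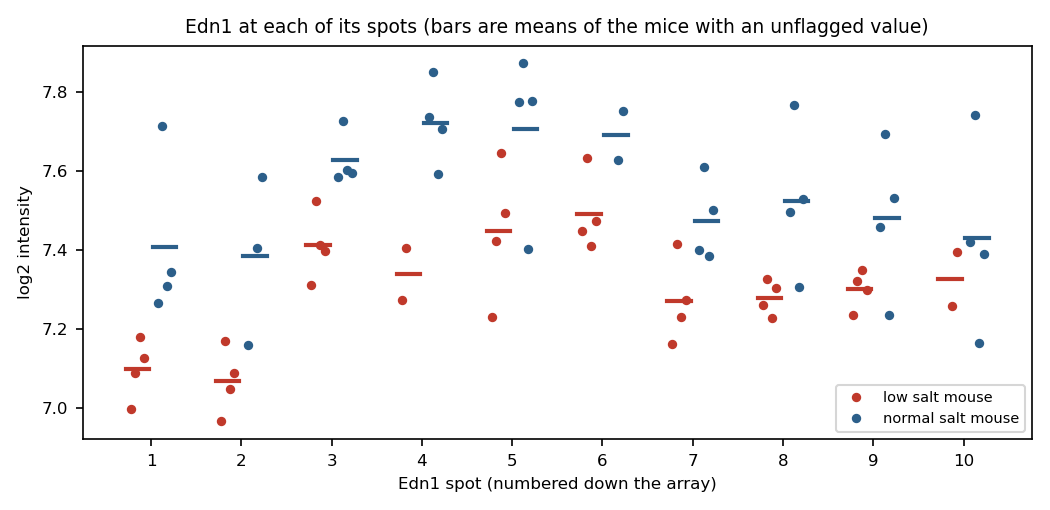
Log2 intensity (vertical axis) of Edn1 at each of its 10 spots (horizontal axis, numbered down the array), with 1 point per mouse and a bar for the mean of each diet; the 7 values marked as outliers are left out. The low salt bar lies below the normal salt bar at all 10 spots, by 0.10 to 0.38, while single mice of the diets overlap at most spots.

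Ece1 encodes the protease that cuts the endothelin precursor to its active form. Its log2 intensity was 8.18, 7.72, 7.93 and 8.04 in low salt mice, against 8.17, 7.81, 7.99 and 7.57 in normal salt mice. The groups overlapped over nearly their whole range, with the lowest value in normal salt mouse 4 and the highest in low salt mouse 1. The means were 7.97 ± 0.20 and 7.88 ± 0.25, and the difference was 0.08 ± 0.18 (SE; limma adjusted p = 0.880). The interval of the fold ran from 0.798 to 1.41, which does not exclude a lower or a higher signal.

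Ednra encodes the A receptor, through which endothelin constricts smooth muscle and acts on heart muscle cells. It had a log2 intensity of 11.52, 11.55, 11.32 and 11.58 in low salt mice, against 11.46, 11.35, 11.59 and 11.76 in normal salt mice. Low salt mouse 3 was the lowest of the 8 and normal salt mouse 4 the highest, with the other 6 between them in mixed order. Low salt mice differed by -0.05 ± 0.14 (SE; limma adjusted p = 0.914), which corresponds to a fold of 0.966 with an interval of 0.771 to 1.21.

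Ednrb encodes the B receptor, which on endothelium releases nitric oxide and removes endothelin from the blood. Its brighter probe gave 8.53, 8.62, 8.33 and 8.73 in low salt mice, against 8.25, 8.75, 8.30 and 8.64 in normal salt mice. In both diets the Cy5 mice (2 and 4) lay above the Cy3 mice (1 and 3), a split by dye that the model holds as a term. The difference was 0.07 ± 0.13 (SE; limma adjusted p = 0.860), with an interval of the fold from 0.855 to 1.29. The dimmer probe shown above had 8.18, 8.25, 7.92 and 8.22 in low salt mice, against 7.92, 8.07, 7.93 and 8.10 in normal salt mice. Its difference was 0.14, of the same sign as the brighter probe.

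Adm encodes the precursor of adrenomedullin, a dilator peptide of vessels and heart. Its log2 intensity was 8.64, 8.47, 8.51 and 8.50 in low salt mice, against 8.66, 8.72, 8.48 and 8.58 in normal salt mice. The means were 8.53 ± 0.08 and 8.61 ± 0.10, and the spread within either diet was as large as their difference of -0.08 ± 0.12 (SE; limma adjusted p = 0.818). The fold was 0.947, with an interval of 0.789 to 1.14. The difference was 0.00 between the Cy3 mice and -0.16 between the Cy5 mice.

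The adrenomedullin receptor is a complex of the calcitonin receptor-like receptor, encoded by Calcrl, and a partner protein encoded by Ramp2 that carries it to the cell surface and sets which peptide it binds. Ramp2 had the largest difference of the 9 genes in absolute size. Its log2 intensity was 12.03, 12.08, 11.64 and 11.91 in low salt mice, against 12.20, 11.92, 12.66 and 12.48 in normal salt mice. The groups overlapped, since normal salt mouse 2 lay below low salt mice 1 and 2. The means were 11.91 ± 0.19 on low salt and 12.31 ± 0.32 on normal salt, a difference of -0.40 ± 0.21 (SE) and a fold of 0.760 with an interval of 0.540 to 1.07. The limma adjusted p was 0.522. The difference was -0.59 between the Cy3 mice and -0.20 between the Cy5 mice.

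For Ramp2, the 2 normal salt arrays lay further apart than the diets did, and the 2 low salt arrays less far. Normal salt mice 3 and 4 averaged 0.51 above normal salt mice 1 and 2, and low salt mice 1 and 2 averaged 0.28 above low salt mice 3 and 4. The Ramp2 difference was -0.14 when the array carrying normal salt mice 3 and 4 was left out, and -0.65 when the one carrying normal salt mice 1 and 2 was. It was negative in every alternative run for it, with a smallest limma adjusted p of 0.243.

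Calcrl had a log2 intensity of 6.67, 6.86, 6.67 and 6.82 in low salt mice, against 6.67, 6.71, 7.04 and 7.18 in normal salt mice. Normal salt mice 3 and 4, which shared an array, stood above the other 6 mice, which overlapped. The probe was well above background in 2 low salt and 3 normal salt mice, so its values lay close to the limit of detection. The difference was -0.15 ± 0.14 (SE; limma adjusted p = 0.699), and it was 0.06 when the array carrying normal salt mice 3 and 4 was left out.

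Apln encodes the apelin precursor, and Aplnr, an older name of which is Agtrl1, encodes its receptor on endothelium and heart muscle cells. Apln had a log2 intensity of 9.51, 9.03, 9.27 and 9.09 in low salt mice, against 9.25, 9.40, 9.04 and 9.29 in normal salt mice. The highest and the lowest of the 8 were both low salt mice. The difference was -0.02 ± 0.21 (SE; limma adjusted p = 0.974), with an interval of the fold from 0.706 to 1.37. It was 0.24 between the Cy3 mice and -0.29 between the Cy5 mice, so the 2 dyes opposed each other. Apln was the 1 gene of the 9 past the limit for an uneven part of the arrays, with surrounding spots that differed by -0.11 between the diets.

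Aplnr had a log2 intensity of 8.92, 8.68, 8.86 and 9.06 in low salt mice, against 9.21, 8.74, 9.21 and 8.72 in normal salt mice. Within normal salt the Cy3 mice stood near 9.21 and the Cy5 mice lower, while the low salt mice did not split by dye. The difference was -0.09 ± 0.20 (SE; limma adjusted p = 0.887), made of -0.32 between the Cy3 mice and 0.14 between the Cy5 mice. The interval of the fold was 0.680 to 1.30.

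Bdkrb2 encodes the kinin B receptor present at rest, the one that bradykinin itself binds. Its log2 intensity was 6.22, 6.22, 6.06 and 6.15 in low salt mice, against 6.18, 6.26, 6.13 and 6.35 in normal salt mice. The probe was not well above background in any of the 8, so the gene was not tested and no fold is given.

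**Figure D3:**
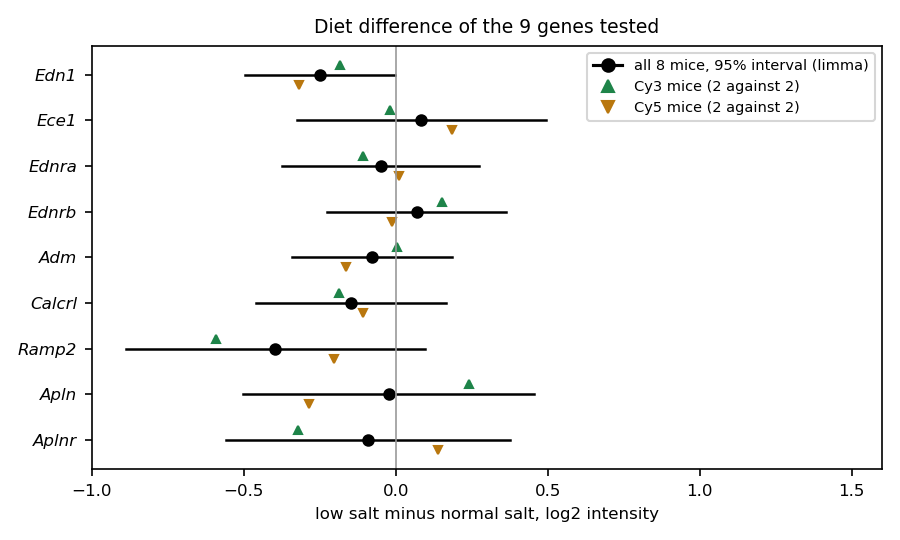
Low salt minus normal salt difference in log2 intensity (horizontal axis) for the 9 genes tested, with the limma estimate and its 95% interval in black and the difference between the Cy3 mice and between the Cy5 mice as triangles. The interval of Edn1 ends just below 0 and those of the other 8 cross it, and the dyes point opposite ways for Ece1, Ednra, Ednrb, Adm, Apln and Aplnr.

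The other genes of these systems were followed through lists of 40 genes, all on the array, of which 27 were tested. None of the 27 passed in limma, beside 0.801% of all genes, and 2 had an unadjusted p under 0.05, both lower on low salt. Over all genes that share was 11.1% in either direction and 4.28% in the lower direction. The difference was negative for 17, beside 47.4% of all genes, and positive for 10, and the median was -0.10. In 3 of them, Ackr3, Mme and Plcb3, the diets were fully separated with low salt below, beside 4.84% of all genes, and in none with low salt above, beside 7.96%. Of 7 genes around endothelin 3 were tested, 2 with a negative difference, at a median of -0.09. Mme, the neprilysin gene whose protease degrades endothelin and other peptides, had a difference of -0.13 ± 0.10 (SE; limma adjusted p = 0.640). Furin, a protease that makes the first cut of the endothelin precursor, had -0.09 (limma adjusted p = 0.765). Edn3, Ecel1 and Kel were not tested for low signal. Ece2 was not tested because the brighter of its probes had no unflagged value in low salt mouse 4 and the other was above background in 1 sample.

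Among 9 genes around adrenomedullin 5 were tested, 3 with a negative difference, at a median of -0.10. Ackr3, a receptor that takes up adrenomedullin and chemokines without G protein signalling, had a log2 intensity of 11.80, 11.81, 11.85 and 11.80 in low salt mice, against 12.02, 12.16, 11.99 and 12.12 in normal salt mice. The low salt mice lay close together and below every normal salt mouse, a difference of -0.26 ± 0.10 (SE; limma adjusted p = 0.393). Ramp3, another partner of the Calcrl receptor, had 9.97, 10.018, 9.62 and 9.86 in low salt mice, against 10.44, 10.31, 10.002 and 10.16 in normal salt mice. Only low salt mouse 2 reached above the lowest normal salt mouse, and the difference was -0.36 ± 0.15 (SE; limma adjusted p = 0.442). Ackr3 and Ramp3 are the 2 related genes with an unadjusted p under 0.05. Adm2, Calca, Calcb and Calcr were not tested.

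Of 2 genes around apelin, Prcp, whose carboxypeptidase trims apelin, was tested and Apela was not. The Prcp difference was 0.06 (limma adjusted p = 0.925). In the kinin list 4 of 8 genes were tested, 3 with a negative difference, at a median of -0.28. Of these, Klkb1 was well above background in 2 low salt and 4 normal salt mice, and Kng1 in 2 of each diet. Both thus lay close to the limit of detection, and Klkb1 entered the median at -0.27. Cpm, a carboxypeptidase that trims kinins, had a difference of -0.29 ± 0.13 (SE; limma adjusted p = 0.463). Ace, which degrades bradykinin and makes angiotensin II, had -0.37 ± 0.20 (SE; limma adjusted p = 0.521). Bdkrb1, Kng2, Klk1 and Cpn1 were not tested.

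All 14 genes of receptor signalling were tested, 9 with a negative and 5 with a positive difference, at a median of -0.07. Rgs5, a brake on G protein signalling in pericytes and smooth muscle, had 11.16, 11.65, 12.55 and 12.83 in low salt mice, against 12.65, 12.54, 12.80 and 12.81 in normal salt mice. The 2 low values came from 1 array, that of low salt mice 1 and 2, while low salt mouse 3 fell among the normal salt mice and low salt mouse 4 just above the highest of them. Gnas, the stimulatory G protein subunit, was likewise lowest in low salt mice 1 and 2, with 14.99, 15.35, 15.79 and 15.91 in low salt mice, against 15.74, 15.95, 15.85 and 15.87 in normal salt mice. The differences were -0.65 ± 0.36 for Rgs5 (SE; limma adjusted p = 0.530) and -0.35 ± 0.20 for Gnas (SE; limma adjusted p = 0.552). The spots around the Rgs5 probe differed by -0.20 between the diets, so it lay in an uneven part.

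**Figure D4:**
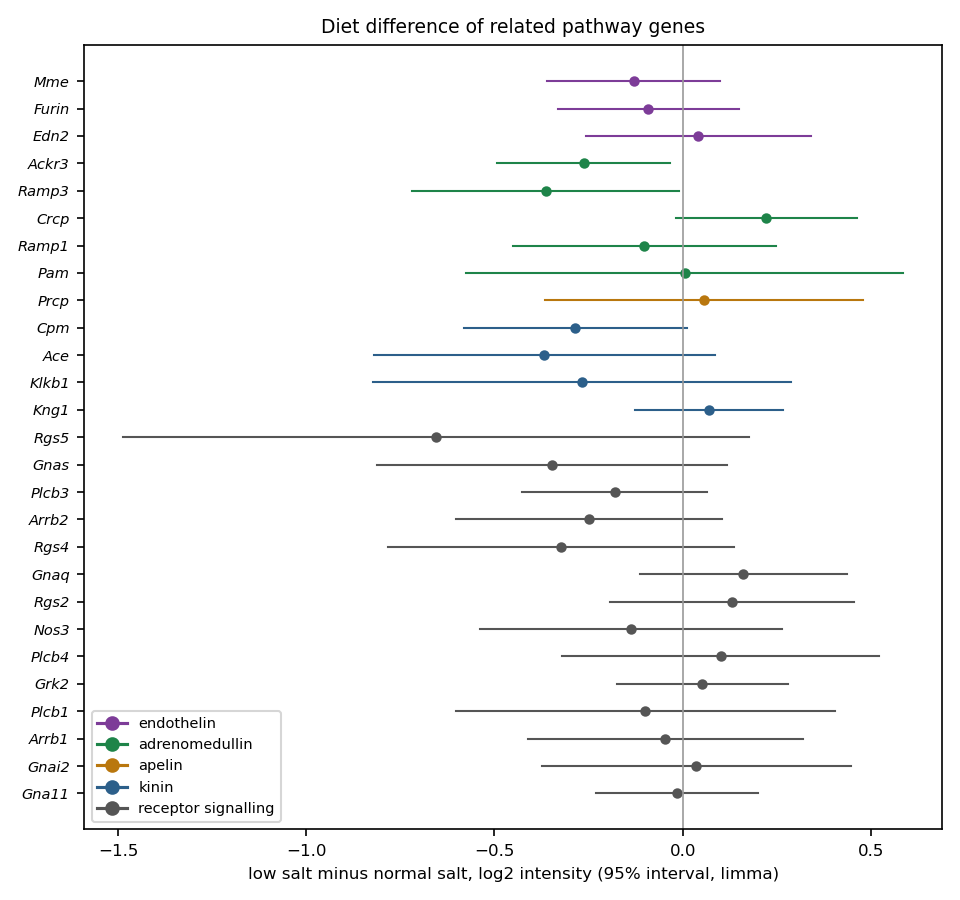
Low salt minus normal salt difference in log2 intensity (horizontal axis) with its 95% interval from limma for the 27 related genes tested, coloured by list. Of the 27 points 17 lie left of 0, and the intervals of Ackr3 and Ramp3 end below 0.

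Edn1 and Ramp2 are made largely by endothelial cells, and in bulk tissue fewer cells of a type and less RNA per cell cannot be told apart. All 16 endothelial markers were tested, 13 with a negative difference beside 47.4% of all genes, at a median of -0.18, and none passed in limma beside 0.801% of all genes. Of the 16, 4 had an unadjusted p under 0.05, all lower on low salt, beside 11.1% of all genes in either direction and 4.28% lower. Their mean log2 intensity was 11.33 to 11.56 in low salt mice and 11.56 to 11.97 in normal salt mice, which overlapped, since low salt mouse 4 reached the level of normal salt mouse 4. Their summed intensity, which weights each gene by the brightness of its probe and has Fabp4 as its largest term, was 85888 to 110014 in low salt mice and 118216 to 167507 in normal salt mice. Low salt mice 1 and 2, which were on the same array, averaged below low salt mice 3 and 4 by 0.95 for Fabp4 and by 1.04 for Tek. Eng had the smallest limma adjusted p of the list, 0.218, at a difference of -0.47, while Pecam1 had -0.01 and Vwf 0.04. The part of endothelial content in the Edn1 and Ramp2 values was not tested. The 10 smooth muscle and pericyte markers, which bear on Ednra, summed to 46587 to 55741 in low salt mice and 47002 to 54780 in normal salt mice, at a median difference of -0.08. That sum too weights each gene by brightness, and Des had the highest mean of the 10 in both diets. Of these markers 7 had a negative difference and 3 a positive one, from -0.46 for Pdgfrb to 0.25 for Des. None of the 10 passed in limma, beside 0.801% of all genes. Mural cell content was not tested for its part in the Ednra value.

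The defining markers of the labelled tissue were present: all 10 cardiomyocyte markers were measured above background, with a mean log2 intensity of 16.73 to 17.37 in low salt mice and 16.80 to 17.42 in normal salt mice. Markers of the atrium, 3 of 4 tested, averaged 9.46 to 12.47 in low salt mice and 10.64 to 13.60 in normal salt mice. Their median difference was -1.97, and the 2 highest were normal salt mice 3 and 4, also the 2 highest for Ramp2 and Calcrl. Next for atrial markers came normal salt mouse 2 (12.73) and low salt mouse 2 (12.47). For Ramp2 the former was the lowest of its diet and the latter the highest of its diet. Low salt mouse 1, the lowest for atrial markers, lay above normal salt mouse 2 for Ramp2. The part of atrial tissue in the Ramp2 and Calcrl values was not tested. The other lists, none of whose genes passed in limma, had median differences of 0.29 for 6 macrophage markers, 0.11 for 5 lymphatic, -0.13 for 8 fibroblast, -0.39 for 4 Schwann cell markers and -0.31 for the 1 of 3 mesothelial markers tested. An unadjusted p under 0.05 in limma was found for 1, 1, 0, 3 and 0 of them in that order, beside 11.1% of all genes.

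The genes most alike in pattern to the 2 members with the smallest p were sought among 13497 named genes by Pearson's r over the 8 mice, as a description. For Edn1 they were Adamts9 (r = 0.969), Dgat2 (r = 0.968) and Nsd1 (r = 0.964), and 74 genes passed an r of 0.9. For Ramp2 they were Plekho1 (r = 0.977), Furin (r = 0.951) and Clic1 (r = 0.944), and 9 genes passed 0.9. The mice share arrays and dyes, which enter every such r. None of the 6 passed in limma, where their adjusted p ran from 0.417 for Clic1 to 0.765 for Furin.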

How the data were processed

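The scanner tables hold the intensity of every spot and its local background in 2 channels, per the file headers. These give the software as Agilent Feature Extraction 11.5.1.1 with protocol GE2_1105_Oct12, and the build as mm9. The 2 deposited tables of an array are identical copies, and each mouse was read in its own dye. The 8 columns of the deposited value table were not used, because their row numbers do not lead to the same-numbered spots.

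In limma 3.58.1 (R 4.3.3, statmod 1.5.0), mean signal was corrected by normexp (offset 50) with the background median, or the channel's median background where the local one was flagged. Values were normalised by loess within arrays and Aquantile between them. Flagged and control spots were left out and spots of a probe averaged. A gene took the value of its brightest probe among those well above background in at least 4 samples and with an unflagged value in all 8, which left 18093 genes. Names follow RefSeq accessions where they matched (27508 of 39429 probes).

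The model held diet and dye, with array as a random block (duplicateCorrelation, 0.562), moderated by eBayes and adjusted by Benjamini-Hochberg over all genes, 2-sided, at 0.05. It was checked on simulated data. The local difference is the median over spots within 12 rows and 5 columns, averaged over the spots of a probe, and a part is called uneven past 0.1. The alternatives covered background, normalization, filters, probes, dyes, blocks, local trend and left-out mice or arrays. Beyond diet, age, sex and strain, nothing in the labels says more of the mice than that they are biological replicates.

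The genes and lists were chosen with earlier results of these data known. All 10 genes are named, with up to 2 genes of smallest p in each related list and the 3 genes most alike to each of 2 members. Plcb3, Klkb1, Kng1, Eng, Pecam1, Vwf, Fabp4, Tek, Des, Pdgfrb and the genes left untested were named after their values were seen. Of the related lists, 1 gene is not reported here and was left out of their counts.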

Additional observations from a re-analysis of the deposited data

How the results depend on the processing

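No gene of the 9 passed the threshold under any alternative run, and their median difference stayed between -0.13 and -0.02. The count over all genes was 145 (138 higher, 7 lower). It was 37 with the scanner's processed signal (30 higher), 71 with the local trend subtracted (60 higher), 2 in even parts alone and 628 without the array block (485 higher). It was 0 in limma without normalization between arrays (776 genes at an unadjusted p under 0.05), with Cy3 alone (1853), with Cy5 alone (1249) and with each array averaged (1561). Leaving out any 1 mouse other than normal salt mouse 4 gave 53 to 75, and leaving out that mouse gave 119. With low salt mice 1 and 2 both left out it was 70, with low salt mice 3 and 4 left out 1098 (455 higher, 643 lower), and with normal salt mice 1 and 2 left out 257. With mouse number as a replicate block 241 genes passed and none of the 9, and the Edn1 adjusted p in limma was 0.257. The numbers share a dye across diets. Their deviations correlated at 0.304, 0.143, 0.163 and 0.192, and at 0.0905, 0.0221, 0.133 and -0.00966 with dye removed. Of the 8 samples, 8 correlated best with their own number in the other diet, and 0 did with dye removed. Removing a dye mean taken from so few mice lowers the correlation of same-dye mice even where they are unpaired. Whether the numbers pair the mice is therefore not settled by these values.

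Signs turned as follows, and the cause was not tested. With the processed signal Adm was 0.0439 and Apln 0.0797, and with the mean of probes Prcp was -0.0737. With Cy3 alone Ece1 was -0.0186, Adm 0.00488 and Apln 0.239, and with Cy5 alone Ednra was 0.0101, Ednrb -0.0136 and Aplnr 0.140. With the local trend subtracted Apln was 0.0822 and Prcp -0.00221. With low salt mice 1 and 2 left out Prcp was -0.000640, and with low salt mice 3 and 4 left out Apln was 0.0233. With normal salt mice 1 and 2 left out Adm was 0.00196 and Apln 0.0585. With normal salt mice 3 and 4 left out Ednra was 0.0836, Ece1 -0.0216, Calcrl 0.0614 and Prcp -0.173. Leaving out each mouse gave ranges of -0.00178 to 0.133 for Ednrb, -0.0225 to 0.139 for Prcp, -0.148 to 0.0879 for Apln, -0.126 to 0.00584 for Ednra, -0.230 to 0.0255 for Aplnr and -0.0297 to 0.192 for Ece1. With low salt mice 3 and 4 left out, Ace (-0.55, limma adjusted p = 0.0492), Rgs5 (-1.30, limma adjusted p = 0.0252) and Gnas (-0.69, limma adjusted p = 0.0340) passed, but low salt then rests on 1 array, and array and diet cannot be told apart. Dim probes such as Calcrl and Edn1 are limited by their signal over background.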
